A study of Mus musculus with 4 samples.

Results

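Chromatin accessibility was mapped in mouse bone marrow-derived macrophages by ATAC-seq, which cuts and tags open DNA with a transposase, and 579 regions were found whose called accessible stretch was longer in both Ezh2 knockout libraries than in both wild-type libraries. Knockout (KO) cells came from Ezh2fl/fl;LysM-Cre+/- mice, in which Cre recombinase made from the lysozyme M locus deletes the floxed Ezh2 gene in myeloid cells, and the wild-type (WT) group came from their littermates, whose own alleles the labels do not give. Both genotypes had been kept for 24 hours in medium conditioned by Hepa1-6, a mouse hepatoma line, so the exposure is common to all groups. There were 2 libraries for each genotype, and the labels do not say whether they came from separate mice or cultures. Each library was deposited as its own list of broad peaks, with 67055 and 71111 peaks in KO and 69210 and 72887 in WT. Peaks of all 4 lists that overlapped by at least 1 bp were merged into 91858 regions on mm10, and 53062 of these were called in every library.

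The members were chosen by the measured length itself: within each shared region the bases covered by a library's peaks were summed, and a region was kept when the smaller KO value was at least 1.5 times the larger WT value. This held for 579 of the 53062 shared regions (1.09%). The difference in length between KO and WT members is therefore built into the choice and is described here without a test. The same rule with the genotypes exchanged kept 726 regions (1.37%), and pairs of libraries that mix the genotypes kept between 304 (0.573%) and 1115 (2.1%). The number of KO-broader regions thus lay inside the range given by mixed pairs, and the regions below are described as measured in these 4 libraries. Peak lists carry no read counts, so the sequencing depth behind each length is unknown. Of the macrophage markers examined, all 11, among them Spi1, Csf1r, Adgre1 and Itgam, had a region at a gene end in every library. By a looser measure, a shared region with its nearest gene end within 50 kb, 15085 of 21896 protein-coding genes had one. So did 8 of 10 dendritic cell genes, so the marker regions do not identify the cells.

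At Ezh2 itself no shared region was a member. The region at its start site had 1350 and 1351 bp in KO and 1378 and 1408 bp in WT. Inside the gene, the region from 47532495 to 47532897 on chromosome 6 had 106 and 182 bp in KO and 403 and 372 bp in WT and met the rule for WT-broader regions, and another had 273 and 267 bp in KO and 152 and 382 bp in WT. Exons were not annotated here, so whether either lies in the floxed part cannot be said. At Lyz2, the lysozyme M gene used to drive Cre, the region over the start site had 334 and 366 bp in KO and 402 and 409 bp in WT.

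Ezh2 is the catalytic subunit of Polycomb repressive complex 2, which methylates lysine 27 of histone H3 (H3K27) and helps to keep developmental genes silent, a mark that the demethylases Kdm6a and Kdm6b remove. In macrophages, many accessible regions outside promoters are kept open by the lineage factor PU.1 (encoded by Spi1) together with C/EBP, AP-1 and signal-dependent factors. An accessible region is usually made of a stretch free of nucleosomes with less accessible DNA beside it, and a broad peak joins neighbouring stretches when the signal between them stays above a lower threshold. The length of a broad peak is therefore a measure of where the signal fell below that threshold, and says nothing of gene expression, which was not measured here.

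Promoter windows from RefSeq (GRCm38.p6, the assembly behind mm10), reaching from 250 bases before to 50 after a start site, show where the additional KO bases lay at 5 of the regions. They were chosen to show promoters called in each genotype with the additional bases at the edge of the window or beyond it, and the less common case of a window covered mainly by KO peaks. Each is written 5′ to 3′ along its gene, and capitals mark bases covered by peaks of both KO libraries and of neither WT library. Slc2a8, Efcab11 and Tdp1 are the first listed promoters by gain in length. The others were picked after their values were seen, Fen1 and Zbed6 for their many KO-only bases and Mgl2 for its role in macrophages.
Slc2a8, chr2:32982034-32982333, minus strand: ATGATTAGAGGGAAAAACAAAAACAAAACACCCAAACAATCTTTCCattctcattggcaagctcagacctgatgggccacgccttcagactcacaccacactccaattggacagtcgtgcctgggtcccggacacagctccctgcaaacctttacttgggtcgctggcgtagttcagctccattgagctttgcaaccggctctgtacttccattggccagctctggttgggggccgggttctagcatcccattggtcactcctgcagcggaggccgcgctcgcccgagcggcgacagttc
Efcab11, chr12:99883393-99883692, minus strand: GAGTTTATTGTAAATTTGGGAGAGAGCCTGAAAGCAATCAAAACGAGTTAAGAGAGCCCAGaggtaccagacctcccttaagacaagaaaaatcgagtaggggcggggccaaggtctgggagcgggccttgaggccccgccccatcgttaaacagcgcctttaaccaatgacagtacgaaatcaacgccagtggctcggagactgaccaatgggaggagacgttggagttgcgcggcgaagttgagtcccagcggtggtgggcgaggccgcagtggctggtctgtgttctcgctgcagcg
Tdp1, chr12:99884268-99884567, plus strand: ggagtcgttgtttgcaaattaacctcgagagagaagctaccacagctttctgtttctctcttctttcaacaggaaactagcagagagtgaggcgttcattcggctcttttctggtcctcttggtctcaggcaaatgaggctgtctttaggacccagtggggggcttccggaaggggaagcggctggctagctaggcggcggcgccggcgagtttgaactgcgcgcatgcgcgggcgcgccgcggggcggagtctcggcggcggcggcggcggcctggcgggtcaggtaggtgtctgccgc
Fen1, chr19:10204344-10204643, minus strand: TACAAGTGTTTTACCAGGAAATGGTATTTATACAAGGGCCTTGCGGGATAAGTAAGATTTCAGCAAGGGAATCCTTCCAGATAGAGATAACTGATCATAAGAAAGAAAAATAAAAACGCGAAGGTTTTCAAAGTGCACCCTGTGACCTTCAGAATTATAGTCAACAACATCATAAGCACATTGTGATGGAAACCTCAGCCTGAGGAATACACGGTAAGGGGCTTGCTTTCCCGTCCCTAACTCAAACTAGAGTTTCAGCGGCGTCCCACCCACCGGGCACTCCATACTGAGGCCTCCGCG
Zbed6, chr1:133660836-133661135, minus strand: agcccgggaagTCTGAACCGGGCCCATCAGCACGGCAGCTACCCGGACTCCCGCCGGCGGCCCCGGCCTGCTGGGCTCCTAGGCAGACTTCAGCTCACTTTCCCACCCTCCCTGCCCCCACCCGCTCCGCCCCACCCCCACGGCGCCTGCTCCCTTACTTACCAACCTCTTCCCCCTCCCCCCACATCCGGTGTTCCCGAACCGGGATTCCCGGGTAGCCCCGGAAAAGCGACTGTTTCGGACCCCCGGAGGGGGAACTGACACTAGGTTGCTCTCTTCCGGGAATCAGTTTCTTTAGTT
Mgl2, chr11:70130107-70130406, plus strand: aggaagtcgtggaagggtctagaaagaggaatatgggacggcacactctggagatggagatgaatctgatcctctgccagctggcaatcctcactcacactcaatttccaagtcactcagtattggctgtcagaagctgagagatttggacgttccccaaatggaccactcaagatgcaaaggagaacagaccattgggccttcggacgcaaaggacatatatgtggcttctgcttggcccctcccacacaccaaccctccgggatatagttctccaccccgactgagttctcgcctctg

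All 300 bases of the Fen1 window (a second start site of the gene, which encodes a flap endonuclease of DNA replication) and 289 bases of the Zbed6 window (a transcriptional repressor gene) were covered by both KO peaks but no WT peak, and WT peaks reached 11 bases of the Zbed6 window. The other Fen1 window in the same region (10203872 to 10204171) had 300 bases in both KO libraries and 300 in both WT libraries, so that start was called in each genotype. Zc3h11a, whose window lay in the same region as that of Zbed6, had 213 bases in both KO libraries and 215 in both WT libraries. At Slc2a8 the KO-only part was 46 bases and at Efcab11 61 bases, both at the upstream edge of the window. Tdp1 and Mgl2 had no KO-only base in their windows. At Tdp1 WT peaks covered all 300 bases. At Mgl2 WT peaks covered 243 bases and both KO peaks 222, as the KO peaks ended further from the start site than the WT peaks. Across the 79 promoter windows of protein-coding genes under the members, 55 had no KO-only base and 24 had at least 1. The median window had 300 bases in both KO libraries and 232 in both WT libraries, so the typical window was largely covered in each genotype. A window without a KO-only base was not always called in each genotype. The Gfi1 windows, for example, had 0 bases in both KO libraries and 0 in any WT library.

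Members were of modest length in KO and short in WT. The median length covered in a region was 456 and 459 bp in the KO libraries, against 196 and 200 bp in the WT libraries. Over all shared regions the medians were 365 and 401 bp in KO and 377 and 395 bp in WT, so the members were longer than the common region in KO and shorter in WT. The middle 50% of members ran from 325 to 695 bp and from 322.5 to 745 bp in KO, against 143 to 300.5 bp and 150 to 306.5 bp in WT. The gain, taken as the smaller KO value minus the larger WT value, had a median of 177 bp and ran from 61 to 1109 bp. It was at least 500 bp in 30 members and under 100 bp in 67. The ratio of the smaller KO to the larger WT value had a median of 1.73 and a maximum of 3.57. It was at least 2 in 138 members and at least 3 in 9.

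**Figure D1:**
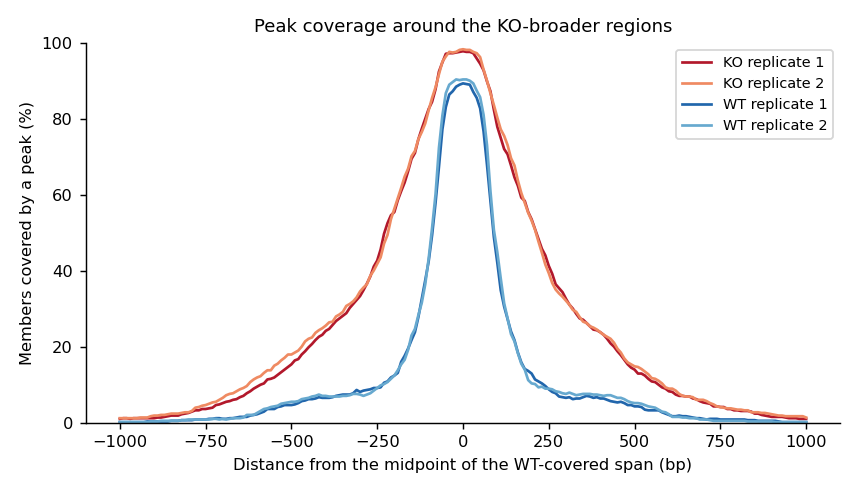
Percentage of the 579 KO-broader regions that a peak of each library covered (vertical axis, in percent), by distance in bp from the midpoint of the WT-covered span (horizontal axis); the 4 lines are the 2 KO and the 2 WT libraries. At 250 bp to either side, between 39.4% and 42.7% of regions were covered in the KO libraries and between 8.81% and 9.15% in the WT libraries.

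The additional bases usually lay on 1 side. In 446 of 579 members (77.0%), at least 80% of the bases covered by both KO libraries and by neither WT library lay on 1 side of the WT-covered span, 238 on the side of lower and 208 on the side of higher coordinates. In 46 members (7.94%) they filled a gap between separate WT peaks, with a median of 446 bp, against 153.5 bp in the one-sided members. A further 65 members were mixed, and 22 had no such base at all. WT-broader regions were built the same way, with 583 of 726 (80.3%) one-sided and 46 (6.34%) filled gaps, so the same geometry was seen in the other direction. Several peaks in 1 region were found in 13 and 7 members in the KO libraries, against 41 and 39 in the WT libraries.

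Replicates of a genotype did not always cover the same bases. Between the KO libraries the median share of bases in common (the bases covered in both over those covered in either) was 81.3% in the members, and between the WT libraries 76.0%, against 79.0% and 78.9% over all shared regions. In 6 members the WT peaks had no base in common, so that each WT value was short while the pair together covered more. When the smaller KO length was set against the bases covered by either WT library, 454 members still reached 1.5. When only bases covered in both KO libraries were set against the bases of either WT library, 356 (61.5%) did. The typical factor between replicate lengths was 1.13 for KO and 1.15 for WT members, against 1.18 for each genotype over all shared regions. Since the rule asks for a smaller KO value above a larger WT value, it favours regions whose replicates lie close together.

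The members with the largest gain were long regions. Among the first 12, 11 overlapped a protein-coding gene, against 62.6% of all shared regions. That share covers regions of every size and is not matched to the length of these 12, of which 11 were at least 1000 bp wide. A gene end was within 1 kb of 6, against 59.4% of shared regions with a mean covered length from 800 to under 1600 bp. Their KO lengths ran from 925 to 2452 bp and their WT lengths from 115 to 980 bp. The largest gain, 1109 bp, was found at 10712684 to 10715228 on chromosome 3, which was covered over 1800 and 2452 bp in KO and over 691 and 325 bp in WT. That region lay 272553 bp from the nearest gene end, that of Snx16, and was broken into 2 and 1 peaks in KO and into 3 and 2 peaks in WT. Dapk1, which encodes a death-associated protein kinase, had 1318 and 1106 bp in KO and 427 and 426 bp in WT, inside the gene (chromosome 13, 60619691 to 60621049). Here the gain was 679 bp, and the WT values were nearly equal.

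Slc2a8, which encodes the glucose transporter GLUT8, had 1497 and 1415 bp in KO and 617 and 729 bp in WT, across its start site (chromosome 2, 32981431 to 32982929). At Iscu, the scaffold protein for iron-sulfur cluster assembly, the region inside the gene had 956 and 925 bp in KO and 293 and 323 bp in WT. Dock8, which encodes an exchange factor for Cdc42 in leukocytes, had 1576 and 1616 bp in KO, against 975 and 814 bp in WT, 62771 bp from the nearest gene end. In these 3 regions each replicate pair lay much closer together than KO and WT did, a pattern that the rule favours. Mapre2, a microtubule end-binding protein gene, had 1538 and 1580 bp in KO and 808 and 398 bp in WT, and Bin3 had 1669 and 1688 bp in KO and 672 and 980 bp in WT. In both, the WT replicates differed far more than the KO replicates. Frat2, which encodes an inhibitor of the kinase GSK3 in Wnt signalling, had 1475 and 1591 bp in KO and 875 and 815 bp in WT at its start site. Plcl1 had 1340 and 1360 bp in KO and 582 and 719 bp in WT. Ctcfl, the testis-specific paralog of the insulator factor CTCF, had 970 and 1244 bp in KO and 360 and 115 bp in WT. Gm46238 had 1454 and 1372 bp in KO and 572 and 748 bp in WT, and the remaining region of the 12, over the starts of Efcab11 and Tdp1, is described with the start sites below.

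**Figure D2:**
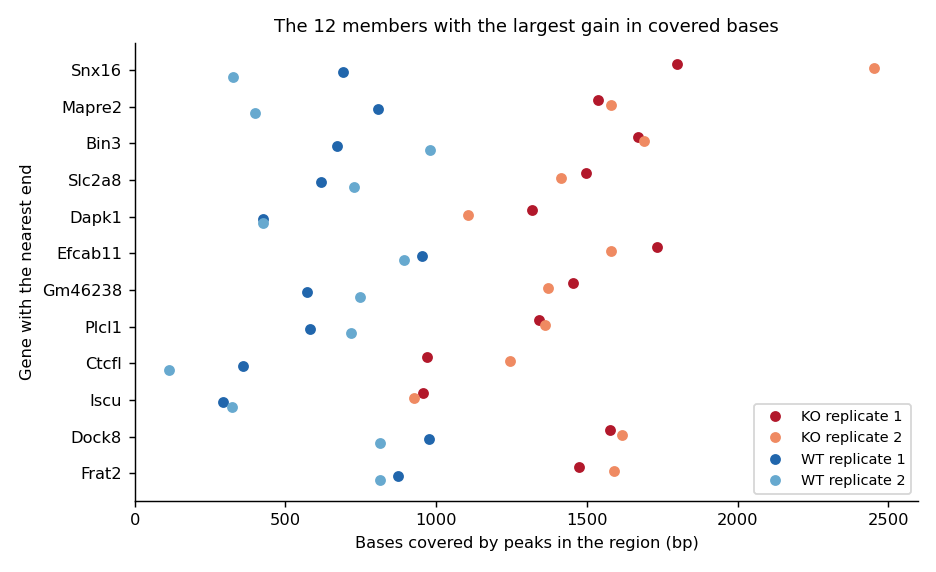
Bases covered by peaks in each of the 12 regions with the largest gain (horizontal axis, in bp), named by the gene with the nearest end (vertical axis); each point is 1 library, with 2 KO and 2 WT libraries per region. KO points lie between 925 and 2452 bp and WT points between 115 and 980 bp, and they do not overlap within a region because the members were chosen that way.

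Ranked by ratio, the leading members were shorter. Their KO lengths ran from 441 to 1037 bp and their WT lengths from 107 to 255 bp, and 2 of these 12 were at a gene end, a share near the 16.1% of all members. Pakap, an A-kinase anchor protein gene, had the largest ratio (3.57), with 564 and 580 bp in KO and 158 and 143 bp in WT at 57755129 to 57755734 on chromosome 4, inside the gene. Close to Arl4c, which encodes a small GTPase of the ARF family, a region 3071 bp from the gene had 814 bp in both KO libraries and 230 and 240 bp in WT. Both replicate pairs were nearly equal there, and the peaks differed on the lower-coordinate side. Laptm5, a lysosomal membrane protein gene of blood cells, had 492 and 526 bp in KO and 124 and 158 bp in WT, 12869 bp from the gene. A region 34296 bp from Atg5, which is needed to form autophagosomes, had 553 and 547 bp in KO and 182 and 158 bp in WT. Npas2, a circadian transcription factor gene, had 606 and 610 bp in KO and 113 and 192 bp in WT. Hsf1, the heat shock transcription factor gene, had 780 and 740 bp in KO and 255 and 143 bp in WT. Of the 12 members, 11 gained on 1 side, the exception being Hsf1, where KO peaks closed a gap between WT peaks. The others were near Capn11, 2510009E07Rik, Man1a2, Bcar3, Pianp and Cap1, with ratios of at least 2.92.

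Members at start sites mostly had the site within the WT-covered span, which runs from the first to the last base of either WT library, gaps included. Start sites of protein-coding genes were taken from the promoter table, which holds none on chromosome 18, so 569 members were placed. The table also lacks starts on other chromosomes. The member at an end of Bin3, for example, lay 544445 bp from the nearest listed start. The shares below count listed starts only and can be too low. Of these, 66 (11.6%, exact 95% CI 9.09 to 14.5) covered a start site. The share was 7.26% for WT-broader regions, 7.81% for regions kept by mixed pairs and 16.5% for all shared regions. At 58 of the 66 members the site lay within the span covered in WT. The KO-only bases lay at least to 80% downstream, into the gene, in 30, upstream in 14 and otherwise in 22. Of the 51 WT-broader regions over a start site, the bases covered by WT alone lay downstream in 25, upstream in 14 and otherwise in 12.

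**Figure D3:**
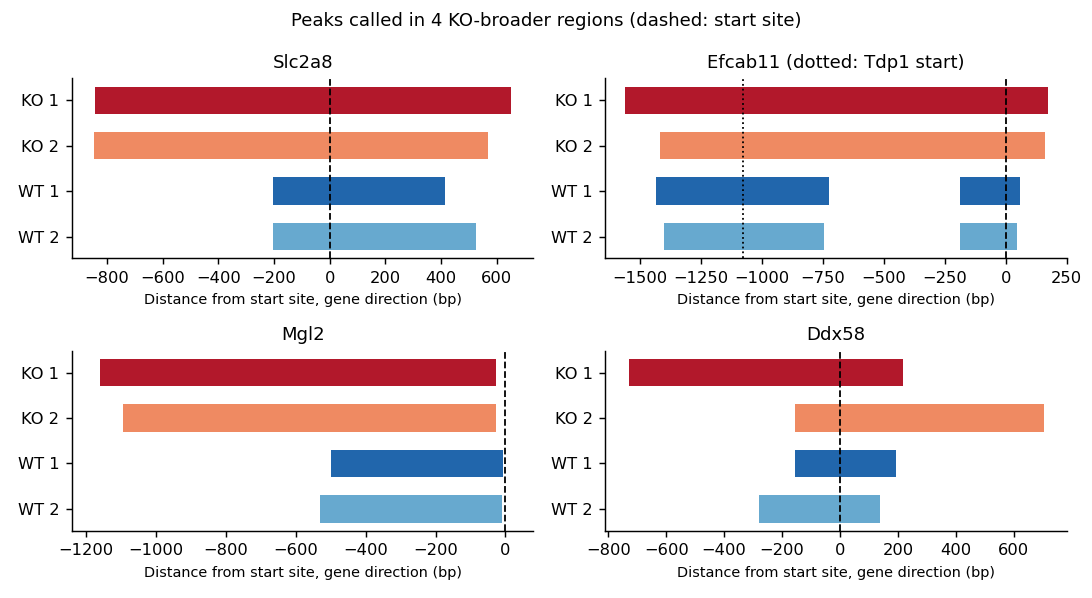
Peaks of the 2 KO and 2 WT libraries (bars, 1 row per library) in 4 KO-broader regions, by distance in bp from the start site (dashed line; positive values run into the gene; the dotted line is the start site of Tdp1). At Slc2a8 and Mgl2 both KO peaks reached further upstream, at Efcab11 a KO peak joined 2 WT peaks, and at Ddx58 the KO replicates reached out on opposite sides.

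At Slc2a8 the KO peaks reached 844 and 846 bp upstream of the start site, while both WT peaks ended 204 bp upstream. On the downstream side the KO peaks ended at 652 and 568 bp and the WT peaks at 412 and 524 bp, so the gain was mostly upstream. Efcab11 and Tdp1 (a repair enzyme gene for DNA joined to topoisomerase) start 1076 bp apart in opposite directions. Each KO library had a single peak over both starts, of 1733 and 1580 bp, whereas the WT libraries had 2 peaks each, of 244 and 709 bp and of 235 and 658 bp. Tbl1x, a corepressor subunit gene on chromosome X, had 1604 and 2028 bp in KO and 1019 and 949 bp in WT at its start. At Aamdc, with 1552 and 1564 bp in KO and 822 and 961 bp in WT, no base was common to the KO peaks and free of WT peaks. The KO peaks had 794 bases in common there, so about as many as the WT peaks, which had 733.

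Genes of macrophage function held a few of the members. Over 17 gene lists with 358 genes, chosen with earlier results of these data known, 16 of 1007 shared regions assigned to a list gene (the nearest gene end within 50 kb) were KO-broader (1.59%) and 13 were WT-broader (1.29%). Over all 43297 assigned regions the shares were 1.104% and 1.27%. The list genes thus had 16 members in all, at 16 genes, and their ratios ran from 1.5 to 2.05. None of these counts was tested, and with 0 to 3 members a list they are too few to set lists apart.

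Alternative activation genes had 1 member among 135 shared regions. It lay at Mgl2, which encodes a galactose-binding C-type lectin of alternatively activated macrophages, at 70129197 to 70130349 on chromosome 11. Its lengths were 1134 and 1065 bp in KO and 493 and 521 bp in WT, the largest gain on any list at 544 bp. The KO peaks reached 1160 and 1093 bp upstream of the start site and the WT peaks 500 and 531 bp, and all 4 ended within 29 bp of the start. Deposited fold values, the peak caller's enrichment over local background averaged over a peak, were 4.80 and 4.53 in KO and 5.25 and 4.57 in WT. The replicates of each genotype lay closer to each other in length than to the other genotype, which the rule favours, and the fold values overlapped.

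Macrophage identity genes had 3 members among 169 shared regions, with 1 WT-broader region at Zeb2. The region inside Spi1, 1545 bp from an end of the gene (chromosome 2, 91083919 to 91084940), had 904 and 882 bp in KO and 527 and 535 bp in WT. Its fold values were low in every library, at 2.84 and 2.51 in KO and 2.87 and 2.89 in WT. Tlr4, the receptor for bacterial lipopolysaccharide, had 533 and 542 bp in KO and 229 and 330 bp in WT, inside the gene. A region 12226 bp from Cebpa, a lineage factor of the C/EBP family, had 364 and 315 bp in KO and 196 and 206 bp in WT. The Spi1 region had the largest gain of the 3, at 347 bp, and that at Cebpa the smallest, at 109 bp.

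Inflammatory genes had 2 members and 2 WT-broader regions (near Nfkbia and Nos2) among 147. Il1a, the gene of the cytokine interleukin-1 alpha, had 485 and 465 bp in KO and 251 and 310 bp in WT, exactly at the threshold of 1.5. A region 3467 bp from Cd86, which encodes a costimulatory ligand for T cells, had 344 and 417 bp in KO and 210 and 214 bp in WT. Tumour-associated macrophage genes had 2 members and 3 WT-broader regions (Csf1 and Spp1) among 103. Marco, a scavenger receptor gene, had 444 and 316 bp in KO and 210 and 199 bp in WT, and Cd9, a tetraspanin gene, had 658 and 1006 bp in KO and 390 and 437 bp in WT. Both lay outside the genes, 6845 bp away for Marco and 14956 bp for Cd9, and the KO replicates of both differed more than their WT replicates.

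The interferon response list had 1 member and 1 WT-broader region (Usp18) among 44. The member lay at the start of Ddx58, which encodes the RNA sensor RIG-I (chromosome 4, 40239122 to 40240555). Its lengths were 948 and 858 bp in KO and 348 and 418 bp in WT. The KO peaks did not extend the same way, since that of replicate 1 ran from 730 bp upstream to 217 bp downstream and that of replicate 2 from 154 bp upstream to 703 bp downstream. Only 24 bases were common to the KO peaks and free of WT peaks. A region with H2-DMa as its nearest gene end (a chaperone of peptide loading onto MHC class II), which lies inside Brd2, had 319 and 394 bp in KO and 159 and 151 bp in WT. Srebf2, the transcription factor gene of sterol synthesis, had 282 and 249 bp in KO and 148 and 162 bp in WT, and the lipid list had 3 WT-broader regions, near Msr1, Plin2 and Srebf2 itself.

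Polycomb genes had members and WT-broader regions in equal number. Among 47 shared regions of the list of PRC2 subunits and H3K27 demethylases, 2 were KO-broader and 2 WT-broader. Kdm6b, the demethylase gene, had 645 and 472 bp in KO and 144 and 314 bp in WT at 69417636 to 69418280 on chromosome 11, inside the gene and 2087 bp from its end. Its replicates were far apart in both genotypes, and its ratio was at the threshold. Mtf2, an accessory subunit that recruits PRC2, had 647 and 455 bp in KO and 297 and 258 bp in WT across its start site. The WT-broader regions of the list lay at Ezh2 and Jarid2.

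Developmental genes, the usual targets of PRC2, had too few shared regions to be compared with the background share of 1.104%. Hox genes had 0 of 14 shared regions, and other developmental regulators had 1 of 63 (1.59%), inside Pax6, a transcription factor gene of the eye and nervous system, with 359 and 492 bp in KO and 147 and 212 bp in WT. Their WT-broader count was also 1, near Pax8. Over the Hox regions the median log2 ratio of KO to WT length was -0.27, and over the other developmental regulators -0.07. All assigned regions stood at -0.001, and these values were not tested. Cell cycle genes had 1 member of 49, 14442 bp from Cdkn1a, the gene of the inhibitor p21, with 249 and 290 bp in KO and 111 and 160 bp in WT. Of the lists for other cell types, that for neutrophils had 1 of 21, 12952 bp from S100a9, a subunit of calprotectin also made by monocytes, with 206 and 309 bp in KO and 118 and 129 bp in WT. The lists of B cells, T and NK cells, dendritic cells, fibroblasts and hepatocytes had 0 of 81 shared regions. Taking 3 counts as the upper limit for a count of 0, an approximation and not an exact interval, allows a share of up to 3.70%.

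A small number of genes had more than 1 member. The 478 assigned members fell to 470 genes, of which 7 had at least 2, and 23 genes had both a KO-broader and a WT-broader region. Speer4e had 3, at 14933636 to 14952531 on chromosome 5, with lengths from 725 to 911 bp in KO and from 208 to 490 bp in WT. It belongs to a family of near-identical copies, so reads may have been split or shared between them, and these lengths are uncertain. Besides the region above, Atg5 had a second one 48930 bp from the gene, with 342 and 334 bp in KO and 159 and 191 bp in WT. Its fold values, 7.07 and 6.48 in KO and 10.1 and 10.2 in WT, were lower in both KO libraries. Dapk1 had a second region with 283 and 276 bp in KO and 134 and 150 bp in WT. Ergic1, Pyroxd2, Thada and Wsb1 had 2 each, with ratios from 1.54 to 2.63.

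In few members did the longer KO peaks also have the higher fold values. The median fold was 4.13 and 4.07 in the KO libraries and 4.43 and 4.45 in the WT libraries over the members, against 4.99 and 4.96 in KO and 4.98 and 4.89 in WT over all shared regions. By rank within its own list, the median member stood at percentile 39.5 and 41.7 in KO and 47.5 and 52.5 in WT, while shared regions in general stood between 59.8 and 62.7. The fold was lower in both KO libraries than in either WT library in 220 members (38.0%) and higher in 55 (9.50%). Over all shared regions these shares were 14.5% and 21.9%. WT-broader regions showed the reverse order, with fold lower in both KO libraries in 73 (10.1%) and higher in 257 (35.4%). Where a library had several peaks in a region, the highest fold and percentile among them were used. That applied to 13 and 7 members in the KO libraries and to 41 and 39 in the WT libraries. As the fold is an average over the peak and comes from the same contrast as the length, these values are a description.

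By position, most members lay away from gene ends. Of the members, 93 (16.1%, exact 95% CI 13.2 to 19.3) lay within 1 kb of the end of a protein-coding gene, 285 (49.2%) inside a gene but further from its ends and 201 (34.7%) outside genes. WT-broader regions stood at 13.1% (10.7 to 15.8) at gene ends, regions kept by mixed pairs at 14.6% (13.3 to 16.1) and all shared regions at 22.3% (21.96 to 22.7). Among shared regions, longer ones lay at gene ends more often, and at a mean covered length from 200 to under 400 bp the gene-end shares were 8.04% for members and 8.99% for shared regions. From 400 to under 800 bp they were 26.0% and 28.8%, and from 800 to under 1600 bp 43.5% (20 of 46) and 59.4%. In the same classes WT-broader regions stood at 22.4% and 35.9%, and regions kept by mixed pairs at 22.5% and 51.25%. The share below that of all shared regions was thus not particular to the members. No test was run on these shares. On single autosomes between 0.630% (chromosome 18) and 1.41% (chromosome 11) of shared regions were members, and 8 members lay on the sex chromosomes.

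The nearest shared region that met neither genotype rule, at a median distance of 7050 bp, was longer in KO about as often as it was longer in WT. Its median log2 ratio of KO to WT length was -0.01, and it was above 0 beside 277 of 579 members (47.8%), against 49.3% of all shared regions that met neither rule. Regions that met either rule were left out as neighbours, so large differences were removed beforehand.

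Promoters under the members were rich in CpG, as were those under shared regions. The 96 windows under members, of 89 genes and including non-coding ones, had a median of 20.5 CpG dinucleotides, against 22 under all shared regions and 7 in all 32851 windows of the table. Motifs were searched on both strands, and none of them lies wholly within another. The GC box GGGCGG was found in 56 windows under members (58.3%), against 65.0% under shared regions and 35.7% of the table. The E-box CACGTG was found in 16 (16.7%), against 10.6% and 7.15%. CCAAT was found in 29 (30.2%), against 38.1% and 37.4%. The C/EBP letters TTGCNNAA were found in 12 (12.5%), against 8.27% and 10.8%, and the TATA letters TATAAA in 9 (9.38%), against 6.30% and 13.6%. The PU.1 letters GAGGAAGT were found in 5 (5.21%), against 3.69% and 3.20%. The AP-1 letters TGANTCA and the interferon response motif were found in 4 each (4.17%), against 4.90% and 3.20% under shared regions. The CRE letters TGACGTCA and the NRF1 motif were found in 1 each, against 3.37% and 2.28% under shared regions. These are matches of letters in a promoter window, without a test.

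The counts differed widely between pairs of libraries. The count of 579 stood beside 726 in the other direction, and mixed pairs gave 304 for the replicates numbered 1 over those numbered 2 and 1115 for the reverse. KO replicate 1 with WT replicate 2 gave 479 (0.903%), and KO replicate 2 with WT replicate 1 gave 685 (1.29%). The mean of these 4 mixed counts was 645.75, so the KO-broader count was 0.897 of it. The libraries of replicate 2 had the longer regions in general, with medians of 401 bp in KO and 395 bp in WT, against 365 and 377 bp in replicate 1. A geometric mean over both directions cancels such a difference in part, and it was 648 for the split by genotype, 582 for the split by replicate number and 573 for the remaining split. The genotype split thus stood at 1.11 and 1.13 times the mixed ones, which stood at 1.02 to each other. With 3 possible splits the order of these values carries no usable p-value.

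**Figure D4:**
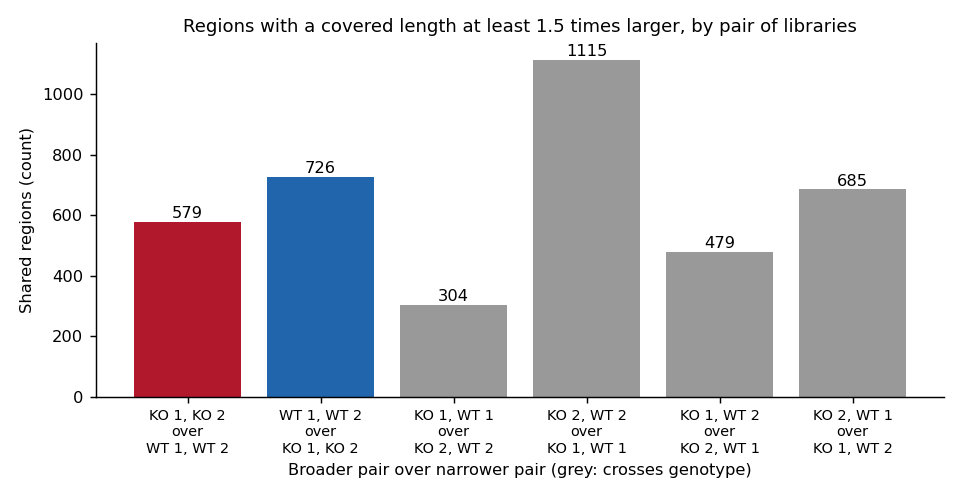
Number of the 53062 shared regions (vertical axis) in which the smaller length of the first pair of libraries is at least 1.5 times the larger length of the second pair, for each pairing (horizontal axis); red is KO over WT, blue is WT over KO and grey bars mix the genotypes. The KO-broader count of 579 lies between the lowest mixed count, 304, and the highest, 1115.

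By size, KO-broader shares lay below WT-broader shares under 400 bp and above them from 400 to under 1600 bp. Among shared regions with a mean covered length from 200 to under 400 bp, 1.54% were KO-broader and 2.30% WT-broader, where mixed pairs averaged 1.905%. From 400 to under 800 bp the shares were 0.958% and 0.891%, with 0.923% for mixed pairs, and from 800 to under 1600 bp 0.662% and 0.562%, with 0.576%. Under 200 bp they were 0.646% and 0.817%, with 0.728%, and none of the 335 regions of 1600 bp or more was a member. In every size class that held members, the KO-broader share lay between the lowest and the highest share of the mixed pairs.

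**Figure D5:**
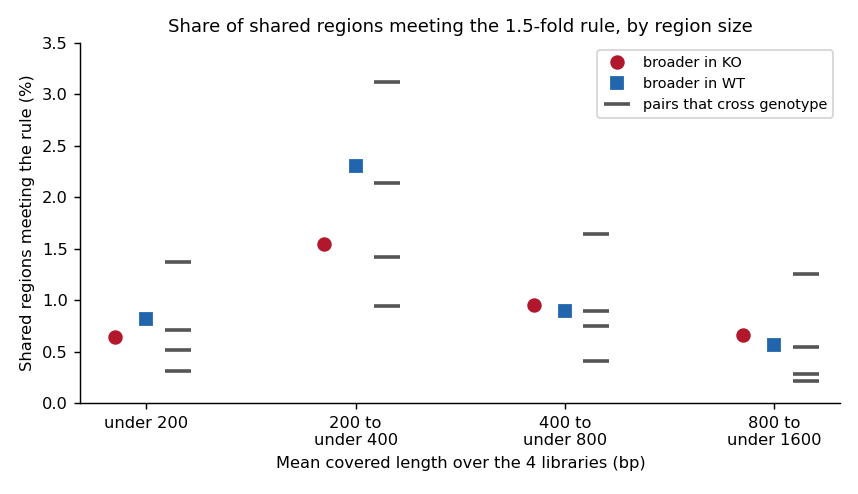
Share of shared regions (vertical axis, in percent) that meet the 1.5-fold rule, by mean covered length over the 4 libraries (horizontal axis, in bp); red circles are broader in KO, blue squares broader in WT, and grey bars are the 4 pairs that mix the genotypes. The KO-broader share is 1.54% from 200 to under 400 bp and 0.662% from 800 to under 1600 bp, each inside the range of the grey bars.

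At the edge of the rule, the values did not break off. In 6 members the ratio was exactly 1.5. They lay at Il1a (above), at Slc22a5 (459 bp as the smaller KO and 306 bp as the larger WT value), at Grk6 (408 and 372 bp in KO, 248 and 247 bp in WT), and with nearest gene ends at Slfn8 (330 and 378 bp in KO, 195 and 220 bp in WT), Gdf7 (183 and 304 bp in KO, 122 and 115 bp in WT) and 1700001C19Rik (372 and 409 bp in KO, 177 and 248 bp in WT). Just outside lay regions at Abcc1 (952 and 1119 bp in KO, 635 and 620 bp in WT), nearest to Zfp236 (791 and 809 bp in KO, 510 and 528 bp in WT) and at Cep78 (364 and 322 bp in KO, 177 and 215 bp in WT).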

How the data were processed

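Per the submitters' processing notes, the authors used fastp, Bowtie2 and MACS2 on mm10, and name no versions. The deposited lists hold 1 set of broad peaks per library, not pooled. By the file layout, the deposited score is, for nearly every peak, the −log10 q times 10 cut to a whole number, the deposited ratio is the fold enrichment of a peak over local background, and the deposited −log10 p and −log10 q are the caller's p-value and q-value, the largest q being 0.0497. Lengths came from peak starts and ends as deposited, with nothing stated in the labels on read shifting, duplicate removal or the filter on peaks. A filter or depth that differs between libraries would move peak edges.

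Regions, lengths, distances and motifs were computed with Python 3.11.15, pandas 2.3.3 and numpy 2.4.6. The merging, the length rule and the bases common to the KO libraries were checked on simulated data, the distances and motifs were not. Gene ends came from the RefSeq table of GRCm38.p6 (21896 protein-coding genes). Shares printed with an interval carry exact Clopper-Pearson 95% intervals (scipy 1.17.1), which cover counting error only. No test was run, since the members were chosen on the contrast. The members, gene lists and comparisons were chosen with earlier results of these data known. Named members were the 12 largest ratios, the 12 largest gains, the 8 largest gains at gene ends, all list genes, genes with at least 2 members, 3 regions on each side of the threshold (with 3 more that tied), and Ezh2 and Lyz2. Alternatives changed the ratio, the peaks kept, the merging distance, the length measure, the minimum length and the libraries used.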

Additional observations from a re-analysis of the deposited data

How the results depend on the processing

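The count of 579 KO-broader regions depends on the threshold: it was 1623 at the lower ratio tried and 138 at a ratio of 2. It was 358 with the weakest 25% of each list removed, 342 where the larger WT length was at least 200 bp, and 249 where the gain was at least 200 bp. Leaving out a library leaves 1 value to meet, and the count then ran from 1967 to 3132 (3132 and 1967 with KO replicate 1 or 2 left out, 2048 and 2669 with WT replicate 1 or 2 left out). The count set against the mean of the mixed pairs, 0.897 as reported, was 1.04 with a WT length of at least 200 bp and 1.002 with a gain of at least 200 bp. It ran from 0.626 to 1.26 when a library was left out, with 1.26 and 0.626 for KO replicates 1 and 2 and 0.690 and 1.06 for WT replicates 1 and 2, so the side of 1 on which it falls depends on single libraries. Of 16 alternatives, 12 gave a value below 1. The share of members at a gene end, 16.1%, was 21.4% within 2 kb, 22.8% with a WT length of at least 200 bp and 21.2% with the weakest 25% removed. The cause of these changes was not tested. With the replicate block, that is with the ratio taken within equal replicate numbers, 937 regions were KO-broader, at 0.925 of the mixed pairs. From region to region, the length deviations of libraries with the same number had a correlation of 0.0105 (over 53062 regions), so the numbers were not taken to pair them. Such a correlation cannot show a shift common to all regions. In both genotypes the library of replicate 2 had the longer median length (401 bp in KO and 395 bp in WT, against 365 and 377 bp). With each length divided by the median of its library, 597 regions were KO-broader, at 0.979 of the mixed pairs. The alternative that used the bases of either WT library (454 regions) was chosen after seeing the data. With no read counts, a length that differs between libraries cannot be told apart from a difference in depth.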

Other observations

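The members described here lay at gene ends or start sites and were picked after their values were seen, so they stand for no gene group. Both Tcirg1 and Atp6v0d1, which encode subunits of the proton pump of lysosomes, had a member. Tcirg1 had 1493 and 1327 bp in KO and 864 and 823 bp in WT, and Atp6v0d1 had 710 and 641 bp in KO and 256 and 181 bp in WT. Nuf2, a kinetochore gene, had 933 and 982 bp in KO and 541 and 509 bp in WT, with a fold of 8.81 and 9.29 in KO and 9.39 and 8.65 in WT. Cdc16, a subunit gene of the anaphase-promoting complex, had 1251 bp in both KO libraries and 793 and 763 bp in WT. In these 4 regions each replicate pair lay closer together than KO and WT did, which the rule that chose the members favours.

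Stat5b, which encodes a transcription factor of cytokine signalling, had 567 and 448 bp in KO and 274 and 234 bp in WT at a start site, and Cxcl14, a chemokine gene, had 691 and 440 bp in KO and 222 and 271 bp in WT. Gfi1, which encodes a transcriptional repressor of blood cell development, had 924 and 1782 bp in KO and 408 and 533 bp in WT. Its KO replicates differed from each other by more than the smaller KO value differed from the larger WT value.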
